A study of Mus musculus with 12 samples.

Results

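The genes described here encode the protein components of the cytosolic ribosome. They were taken as the protein-coding genes whose symbols follow the Rpl and Rps naming pattern, together with Rplp0, Rplp1, Rplp2 and Rpsa, which gave 84 genes of the 54532 genes counted. Of these 84, 43 encode proteins of the large subunit, 31 proteins of the small subunit, 3 the proteins of the acidic stalk, and 7 are paralogs carrying an added letter l or l1 (Rpl3l, Rpl7l1, Rpl10l, Rpl22l1, Rpl36al, Rpl39l and Rps27l). Fau, which encodes a ribosomal protein fused to a ubiquitin-like domain, falls outside the naming pattern and is given separately. The genes lie on 19 chromosomes, and their summed exon lengths ran from 383 to 6270 bases with a median of 1737 bases.

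RNA was sequenced from the liver and the subcutaneous fat of male mice. At 10 weeks of age the mice had received, by tail vein, an adeno-associated virus (AAV8) with the hepatocyte promoter TBGp driving human HKDC1 (hHKDC1 OE) or the same vector without it (null), and both groups were then fed a low-fat diet for 16 weeks. Each tissue had 3 null and 3 hHKDC1 OE libraries, 12 in all. The promoter directs the transgene to hepatocytes, so that the fat of hHKDC1 OE mice is a tissue in which it is not intended to be expressed. The human transcript is not among the mouse genes counted, and mouse Hkdc1 had 0 to 8 counts in every library, so the counts provide no check of the transgene. For 2 of the 3 hHKDC1 OE libraries in each tissue a free-text field speaks of a knockout, whereas their titles and treatment fields say overexpression, and the latter were followed. Libraries held between 15496019 and 19954971 counts. The labels name no animal for a library, while a caption of the study counts the fat samples as separate mice. For the liver no source used here gives the animals behind the 3 libraries, and the p-values there measure the spread between these libraries, which may be technical.

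Ribosomal proteins assemble with ribosomal RNA in the nucleolus into a small subunit, which reads the mRNA, and a large subunit, which forms the peptide bond. Their mRNAs are abundant in nearly all cells, and most start with a run of pyrimidines directly after the cap, the 5′ terminal oligopyrimidine (TOP) motif, through which their translation is controlled by mTORC1. Cells that grow and divide, such as activated lymphocytes, make many ribosomes, while some paralogs are restricted to a few tissues. Rpl3l is the paralog typical of heart and skeletal muscle.

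The transcription starts of the genes that the fat comparison turns on are shown first, and these 7, canonical genes and paralogs, were chosen after their letters were seen and do not stand for the others. RefSeq promoter sequences (GRCm38.p6) matched 64 of the 84 genes by symbol. Each line gives 15 bases before and 15 bases from the annotated start, 5′ to 3′ on the strand of the gene, and capitals mark a C followed by at least 4 further pyrimidines beginning within 20 bases of the start.
Rps27 (chr3:90213634-90213663, reverse strand): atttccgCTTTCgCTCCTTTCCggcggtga
Rplp2 (chr7:141447636-141447665, forward strand): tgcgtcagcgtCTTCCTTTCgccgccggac
Rps6 (chr4:86857353-86857382, reverse strand): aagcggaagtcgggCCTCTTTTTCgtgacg
Rpl13a (chr7:45128731-45128760, reverse strand): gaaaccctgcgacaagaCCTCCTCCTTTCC
Rps27l (chr9:66946071-66946100, forward strand): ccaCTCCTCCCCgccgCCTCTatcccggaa
Rpl7l1 (chr17:46782642-46782671, reverse strand): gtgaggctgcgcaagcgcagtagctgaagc
Rpl3l (chr17:24727811-24727840, forward strand): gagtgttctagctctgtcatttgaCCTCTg

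In Rps27, Rplp2 and Rps6 a run of 9 or 10 pyrimidines began within 4 bases of the annotated start. In Rpl13a a run of 14 bases, which passes the end of the window, began at the transcript's base 3. In Rps27l and Rpl3l the run nearest the start had 5 bases, with a longer run upstream in Rps27l, and Rpl7l1 held none. The other genes did not divide this way. The nearest run had 8 bases in the paralog Rpl22l1 and 7 in Rpl39l, while the canonical Rpl10, Rpl22, Rpl9 and Rps4x held none, and runs of at least 5 bases were found in 6 of 7 paralog and 42 of 57 canonical promoters. The annotated start of Rplp2 lies 281 bases downstream of the start of the gene in the deposited table. Among the 64 promoters, 48 (75%) had a run of at least 5 bases in this window against 48.4% of the 26961 other promoters, and 28 (43.8%) had a run of at least 8 bases against 13.5%. The 7-base motif CCGGAAG, searched on both strands over 300 bases, was found in 25 of 64 (39.1%) and in 9.05% of the other promoters. Its reverse complement CTTCCGG begins with 5 pyrimidines, so the motifs can overlap. TATAAA on either strand was found in 6 of 64 (9.38%) against 14.2%. These matches are letters in a window around an annotated start and not measured start sites.

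Levels per length are given as the deposited FPKM, fragments scaled by gene length and library total. The totals these FPKM were divided by were 1.25 to 1.52 times the counts of the libraries in fat and 0.675 to 0.827 times in liver, so FPKM can be compared between genes within a tissue, while a comparison of tissues carries this scaling. Rplp1, a stalk protein that binds elongation factors, had the highest mean level in both tissues, with 484 ± 76.7 FPKM (SD, n = 3) in null fat and 957 ± 92.3 FPKM in null liver. Rps3a1, a small subunit protein, followed at 275 ± 21.8 and 500.5 ± 22.0 FPKM. In null fat Rplp0 (243 ± 17.0 FPKM), Rpl36 (233 ± 55.1 FPKM) and Rps15 (231 ± 50.9 FPKM) lay within their SDs of each other. In null liver Rpl36 (493 ± 119.8 FPKM), Rps15 (433 ± 86.6 FPKM) and Rps2 (392 ± 29.1 FPKM) followed. Rps3a1, Rps15 and Rps2 lay within the wide SD of Rpl36, whereas Rps2 was below Rpl36 and Rps15 by more than its own SD.

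The median of the 84 genes was 60.1 FPKM in null fat, 115 FPKM in hHKDC1 OE fat, 113 FPKM in null liver and 112 FPKM in hHKDC1 OE liver. In null fat 19 genes reached 100 FPKM and in hHKDC1 OE fat 49 did. Across the 77 canonical genes, log2 levels in null fat and null liver had a Pearson r of 0.98, a description over genes, which share libraries and are not independent.

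A few canonical genes were far below the rest. Rpl24 had 1 to 13 counts in the 12 libraries, Rps10 had 13 to 58 counts, and Rpl13a had 55 to 456 counts. In the mouse annotation, 47.0% of the exonic bases of Rpl24 are also exonic in another gene (Gm28037), as are 28.7% of those of Rps10 and 35.4% of those of Rpl13a. Some 39 of the 84 genes share any exonic base with another gene, and Rpl23a and Rpl35 share over 50% of theirs without such low counts, and the part of shared bases in these levels was not tested. Processed pseudogenes can share reads with their parent genes, and the table held 290 pseudogene rows named after ribosomal protein genes, for 59 of the 84 genes. Values of Rpl24, Rps10, Rpl13a and of genes with many pseudogenes, such as Rpl31 with 24 and Rps12 with 23, are therefore uncertain. Rpl10l, a testis paralog of Rpl10, had 2 counts in one null fat library and 0 in the other 11, and no fold is given for it.

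**Figure D1:**
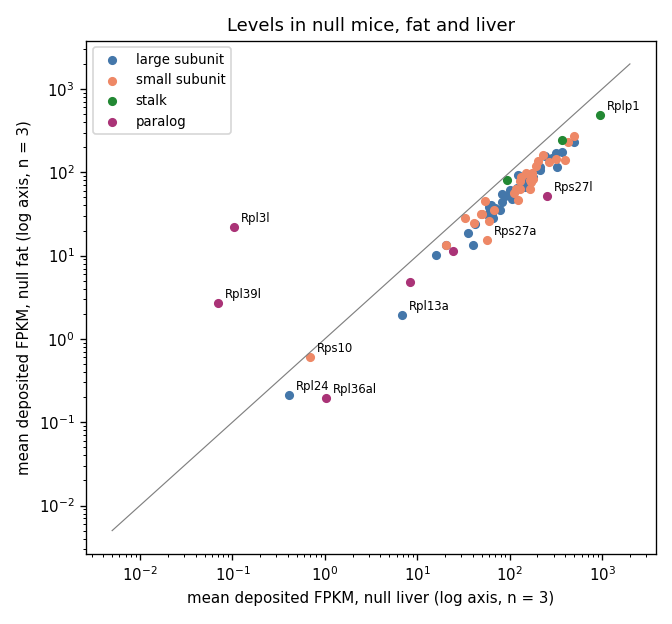
Mean deposited FPKM of the ribosomal protein genes in null fat (vertical) and null liver (horizontal), both on log axes, 3 libraries a tissue, one point a gene, coloured by role. The grey line marks equal values. Canonical genes follow a band that runs from Rpl24 to Rplp1, and the paralogs Rpl3l and Rpl39l lie above the line.

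In subcutaneous fat nearly all ribosomal protein genes had higher values in hHKDC1 OE than in null libraries, and 2 of the 3 hHKDC1 OE libraries carried most of this. The genes took 1.24, 1.21 and 1.48% of all counts in the null libraries and 4.01, 1.78 and 4.23% in the hHKDC1 OE libraries. The hHKDC1 OE libraries 1 and 3 were thus far above the null libraries and library 2 slightly above them, with no overlap between the groups. The median log2 fold change of the 82 genes tested was 1.24, against -0.045 over all 16380 genes tested, and 81 of the 82 were above 0 (46.1% of all genes). No gene of either kind passed an adjusted p of 0.05 by edgeR's quasi-likelihood test (0 of 82 here, 0% over all genes), where the smallest adjusted p was 0.133. At an unadjusted p under 0.05, 73 of the 82 were higher and 0 lower, against 11.3% and 6.39% of all genes. For 55 of the 82 the lowest hHKDC1 OE library was above the highest null library and for 0 the order was the opposite, against 12.5% and 10.2% of all genes. At the same adjusted threshold DESeq2 called 61 of 83 genes higher and 0 lower, against 6.46% and 0.995% of all genes.

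The number of calls depended on hHKDC1 OE library 2. Relative to the null mean, the median log2 difference of the 82 genes was 1.47 in hHKDC1 OE library 1, 0.33 in library 2 and 1.52 in library 3, and 79, 58 and 77 of them were above the highest null library, against 33.7, 25.5 and 34.3% of all genes. Leaving out library 2, edgeR called 73 of the 82 genes higher, and calls over all genes also rose, from 0% to 11.4% higher. Leaving out libraries 1 and 3 instead, a choice made after seeing the data, left 1 hHKDC1 OE library, assumed to vary like the 3 null libraries, which alone gave the spread. This fit had a median of 0.30, with 72 of 82 above 0 (45.5% of all genes), 16 higher and 0 lower at an unadjusted p under 0.05 (2.39% and 2.65% of all genes) and 0 past the adjusted threshold in edgeR.

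**Figure D2:**
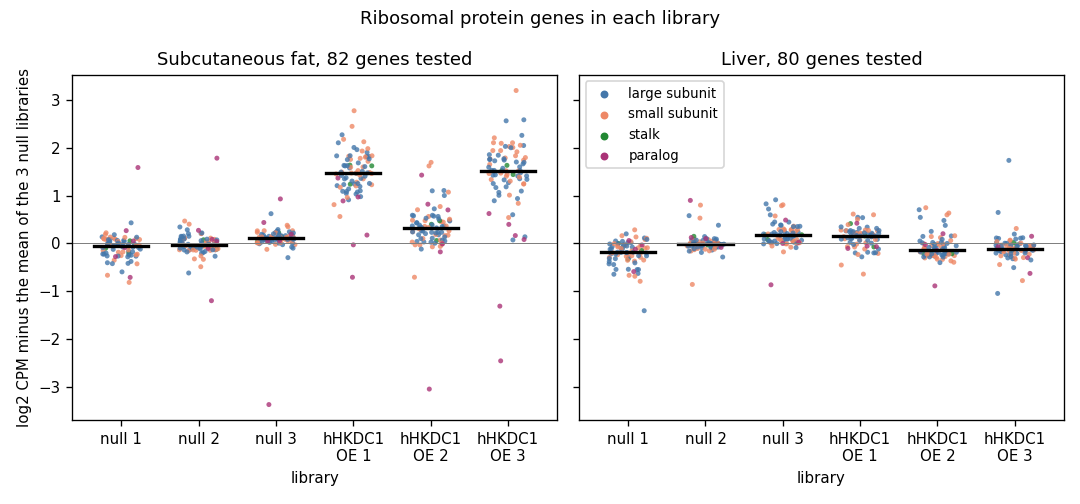
Log2 CPM of each ribosomal protein gene tested, minus its mean over the 3 null libraries of the tissue, in each of the 12 libraries. Points are genes coloured by role and black bars are medians. In fat the medians of hHKDC1 OE libraries 1, 2 and 3 are 1.47, 0.33 and 1.52, and in liver those of all 6 libraries lie between -0.17 and 0.17.

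Lymphocyte markers moved with these libraries, here in CPM, counts scaled by the TMM library size. The summed level of 12 B cell markers was 4.62, 3.78 and 6.63 CPM in the null libraries and 1288, 74.6 and 961 CPM in the hHKDC1 OE libraries. For 11 T cell markers the sums were 8.69, 8.50 and 19.2 CPM in null and 683, 53.3 and 787 CPM in hHKDC1 OE. All 12 B cell and 11 T cell markers were above 0 in mean in both groups and higher in the hHKDC1 OE mean. The 7 markers of lymph node stroma summed to 5.05, 2.36 and 4.49 CPM in null, where 3 of the 7 were at 0, and to 247, 21.6 and 228 CPM in hHKDC1 OE. Proliferation markers (9 genes) summed to 139.7, 120.4 and 129 CPM in null and 315, 150.4 and 356 CPM in hHKDC1 OE, and macrophage markers (8 genes) to 624, 321 and 691 CPM and 1228, 933 and 1504 CPM. Brown fat markers (6 genes) summed to 84.6, 164 and 54.9 CPM in null and 323, 79.5 and 181 CPM in hHKDC1 OE, endothelial markers (4 genes) to 908, 876 and 786 CPM and 643, 956 and 686 CPM, and epithelial markers (5 genes) to 104, 16.5 and 57.7 CPM and 9.66, 11.3 and 11.4 CPM. Adipocyte markers (8 genes) were present in every fat library, at 21325.6, 27995.4 and 28100.1 CPM in null and 17620.2, 26889.4 and 23180.0 CPM in hHKDC1 OE. Hepatocyte markers (9 genes) summed to 2725, 2829.5 and 8206 CPM in null fat and 2477, 883 and 1444 CPM in hHKDC1 OE fat. In bulk tissue more cells of a type and more RNA per cell cannot be told apart, and the part of these cells in the ribosomal protein values was not tested.

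**Figure D3:**
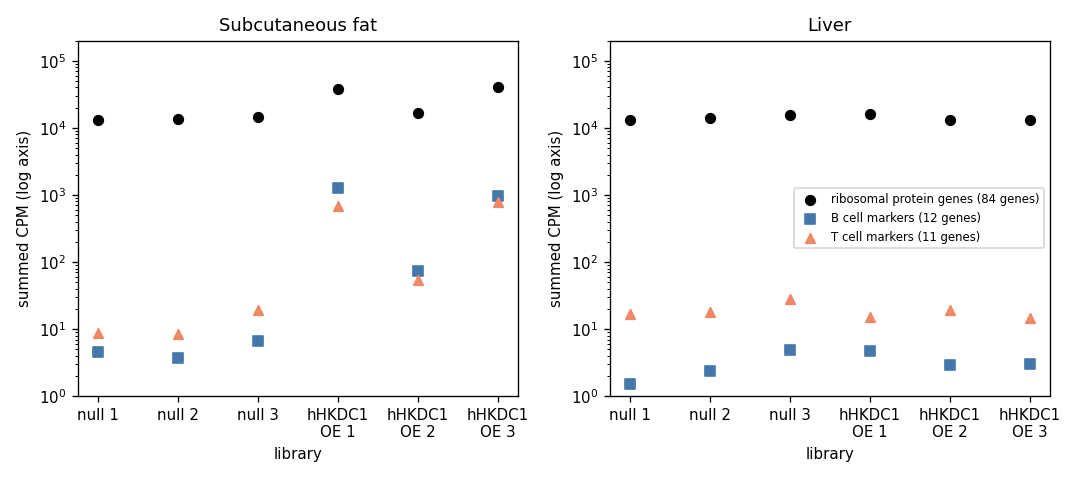
Summed CPM (log axis) of the 84 ribosomal protein genes, of 12 B cell markers and of 11 T cell markers in each library of fat (left) and liver (right). In fat the 3 sums are highest in hHKDC1 OE libraries 1 and 3, while in liver the B cell sum stays under 5 CPM.

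Rplp0 is the scaffold on which the stalk is built. Rplp0 was measured at 563, 509.8 and 556 CPM in null fat and at 1280.0, 565 and 1471 CPM in hHKDC1 OE fat, so libraries 1 and 3 were far above the null libraries and library 2 lay just above the null values. Its log2 fold change was 1.03 ± 0.36 (SE; edgeR adjusted p = 0.217). Rplp1 was measured at 301, 297 and 377 CPM in null fat and at 995, 426 and 929 CPM in hHKDC1 OE fat, with a log2 fold change of 1.27 ± 0.34 and an edgeR adjusted p of 0.144. Rplp2 was measured at 195, 238 and 249 CPM in null fat and at 704, 314 and 702 CPM in hHKDC1 OE fat. For Rplp2, the other acidic stalk protein, the log2 fold change was 1.33 ± 0.33 (edgeR adjusted p = 0.137), and the groups of all 3 stalk genes did not overlap. Rpsa was measured at 514, 472 and 539.6 CPM in null fat and at 1390.5, 484 and 1951 CPM in hHKDC1 OE fat. Rpsa, which takes part in small subunit assembly, thus overlapped between the groups, with library 2 inside the null range, and its log2 fold change was 1.33 ± 0.47 (edgeR adjusted p = 0.222).

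The 5 largest log2 fold changes belonged to Rps27, Rpl21, Rps27a, Rpl30 and Rpl17. Rps27 was measured at 100.4, 61.4 and 104 CPM in null fat and at 589.7, 140.3 and 791 CPM in hHKDC1 OE fat. Rps27 is a zinc-binding protein of the small subunit, and library 2 was above each null library but well below libraries 1 and 3, with a log2 fold change of 2.52 ± 0.60 (edgeR adjusted p = 0.134). Rpl21 was measured at 34.1, 55.1 and 49.1 CPM in null fat and at 218, 96.9 and 217 CPM in hHKDC1 OE fat, with a log2 fold change of 1.94 ± 0.35 and an edgeR adjusted p of 0.133. Rps27a was measured at 30.1, 46.7 and 47.2 CPM in null fat and at 155, 131 and 173 CPM in hHKDC1 OE fat. Rps27a is made as a fusion with ubiquitin, and it was the one of the 5 whose library 2 was near libraries 1 and 3. Its log2 fold change was 1.89 ± 0.22 (edgeR adjusted p = 0.133). Rpl30 was measured at 65.5, 82.9 and 78.8 CPM in null fat and at 254, 112 and 453 CPM in hHKDC1 OE fat. Rpl30 and Rpl17, both of the large subunit, had log2 fold changes of 1.85 ± 0.46 and 1.82 ± 0.52 (edgeR adjusted p = 0.137 and 0.160). Rpl17 was measured at 29.2, 26.2 and 34.1 CPM in null fat and at 106, 35.1 and 176 CPM in hHKDC1 OE fat, and the groups did not overlap.

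The genes named for roles outside the bulk of the ribosome all had library 2 as the lowest of the hHKDC1 OE libraries, as most of the 82 genes tested did. Rps6 was measured at 330.3, 299 and 306 CPM in null fat and at 857, 317 and 1075 CPM in hHKDC1 OE fat. Rps6 is the substrate of S6 kinase downstream of mTORC1, its library 2 lay within the null range, and its log2 fold change was 1.27 ± 0.42 (edgeR adjusted p = 0.202). Rpl5 was measured at 232, 219.8 and 254 CPM in null fat and at 654, 266 and 802 CPM in hHKDC1 OE fat. Rpl11 was measured at 159, 192 and 210.2 CPM in null fat and at 436, 257 and 345 CPM in hHKDC1 OE fat. Rpl5 and Rpl11 form with the 5S RNA a particle that can bind Mdm2, and their log2 fold changes were 1.29 ± 0.38 and 0.89 ± 0.23 (edgeR adjusted p = 0.170 and 0.142), with no overlap of the groups for either. Rps19 was measured at 173, 171 and 198 CPM in null fat and at 501, 251 and 427 CPM in hHKDC1 OE fat, and its log2 fold change was 1.12 ± 0.27 (edgeR adjusted p = 0.134). Mutations of RPS19 are known from Diamond-Blackfan anemia. Rpl13a was measured at 7.17, 3.41 and 6.04 CPM in null fat and at 21.6, 6.75 and 21.5 CPM in hHKDC1 OE fat, values that rest on low counts. Rpl13a is known for a role in interferon-induced translational silencing, its groups overlapped, and its log2 fold change was 1.58 ± 0.50 (edgeR adjusted p = 0.189).

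In the 6 pairs tested each paralog had a smaller log2 fold change than its parent gene, a difference that was not tested. The order of 1 pair depended on single libraries, since without hHKDC1 OE library 3 Rpl22l1 had 1.07 and Rpl22 0.65, and without null library 3 they had 1.00 and 0.95. Without hHKDC1 OE libraries 1 and 3 the order turned in 3 of the 6 pairs, those of Rpl22l1, Rpl36al and Rpl39l. The paralogs' median log2 fold change was 0.13 (6 tested), against 1.17 for the large subunit (42), 1.32 for the small subunit (31) and 1.27 for the stalk (3). At an unadjusted p under 0.05 in edgeR, 40 of 42 large subunit, 29 of 31 small subunit, 3 of 3 stalk and 1 of 6 paralog genes were higher, beside 11.3% of all genes. Large subunit genes ran from 0.63 to 1.94 and small subunit genes from 0.22 to 2.52. Among the other protein-coding genes the median was 0.19 for genes of up to 1000 bases and -0.10 for those over 4000 bases. Rps27l was measured at 53.9, 58.9 and 59.3 CPM in null fat and at 56.1, 50.7 and 75.6 CPM in hHKDC1 OE fat. Rps27l, a p53-inducible paralog of Rps27, had a log2 fold change of 0.083 ± 0.18 (edgeR adjusted p = 0.818), with groups that overlapped. Rpl7l1 was measured at 55.8, 50.2 and 56.0 CPM in null fat and at 60.9, 53.6 and 60.4 CPM in hHKDC1 OE fat. Rpl7l1 differed by 0.11 ± 0.13 on the log2 scale (edgeR adjusted p = 0.663), whereas its parent Rpl7 had 0.98 ± 0.35 (edgeR adjusted p = 0.227). Rpl22l1 was measured at 10.5, 13.5 and 14.5 CPM in null fat and at 32.9, 20.7 and 19.6 CPM in hHKDC1 OE fat. Rpl22l1 was thus the paralog whose groups did not overlap, with a log2 fold change of 0.93 ± 0.26 (edgeR adjusted p = 0.159), next to 1.03 ± 0.36 for Rpl22. Rpl39l and Rpl36al were low, at 0.430 to 7.87 CPM and 0.0620 to 0.663 CPM in the 6 fat libraries, with overlapping groups and log2 fold changes of 0.14 ± 0.91 and 0.53 ± 0.79. Their parents Rpl39 and Rpl36a had 1.32 ± 0.30 and 1.62 ± 0.41 (edgeR adjusted p = 0.134 and 0.138).

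Rpl3l was measured at 68.1, 78.0 and 2.09 CPM in null fat and at 41.9, 2.64 and 9.04 CPM in hHKDC1 OE fat. Rpl3l therefore varied widely within each group, with a log2 fold change of -1.46 ± 1.28 (edgeR adjusted p = 0.556), which ran from -3.09 without hHKDC1 OE library 1 to -0.96 without library 2. The 8 skeletal muscle markers summed to 18322, 22057 and 511 CPM in null and 14631, 1000.2 and 2434 CPM in hHKDC1 OE fat. Rpl3l counts were 0.264 to 0.408% of the muscle marker counts in the 6 fat libraries, so that the libraries high in one were high in the other. Its parent Rpl3 had 1.10 ± 0.31 (edgeR adjusted p = 0.153). Rpl10 and Rps4x, X-linked genes of the large and small subunit, had 0.79 ± 0.25 and 1.01 ± 0.32 (edgeR adjusted p = 0.196 and 0.185). Apart from the paralogs the smallest log2 fold change was that of Rps10, 0.22 ± 0.48, a gene with few counts.

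**Figure D4:**
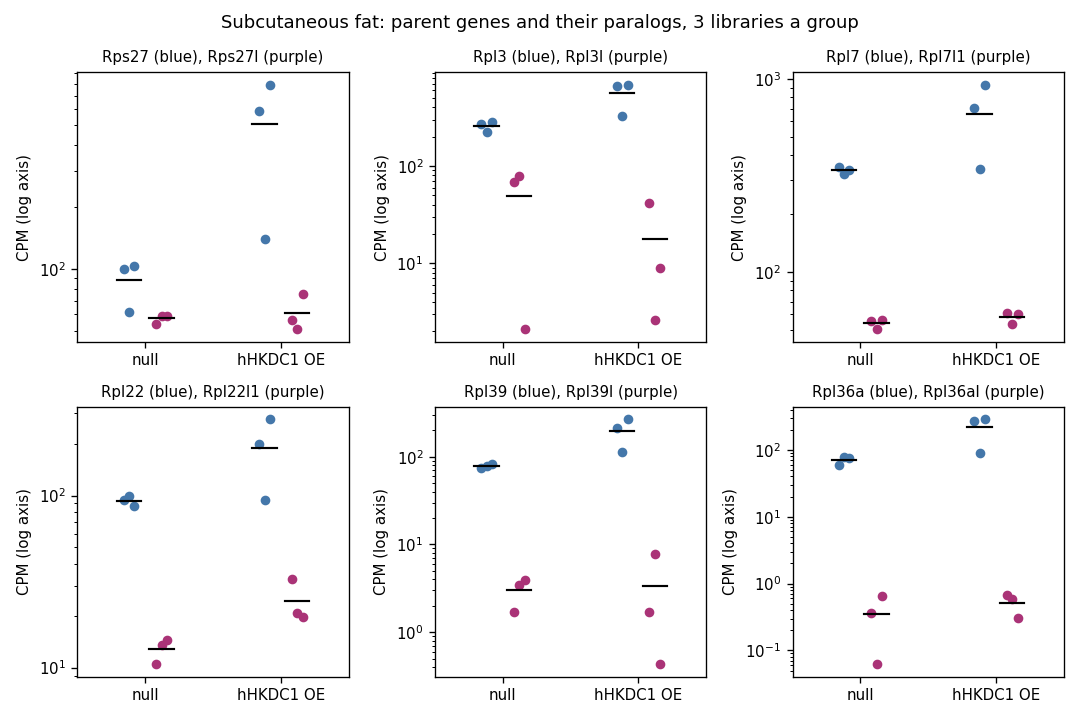
CPM (log axis) in subcutaneous fat of 6 parent genes (blue) and their paralogs (purple) in null and hHKDC1 OE libraries, 3 points a group, with black bars at the means. The null points of Rps27 lie at 61.4 to 104 CPM and the hHKDC1 OE points at 140 to 791 CPM, while Rps27l stays between 50.7 and 75.6 CPM.

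**Figure D5:**
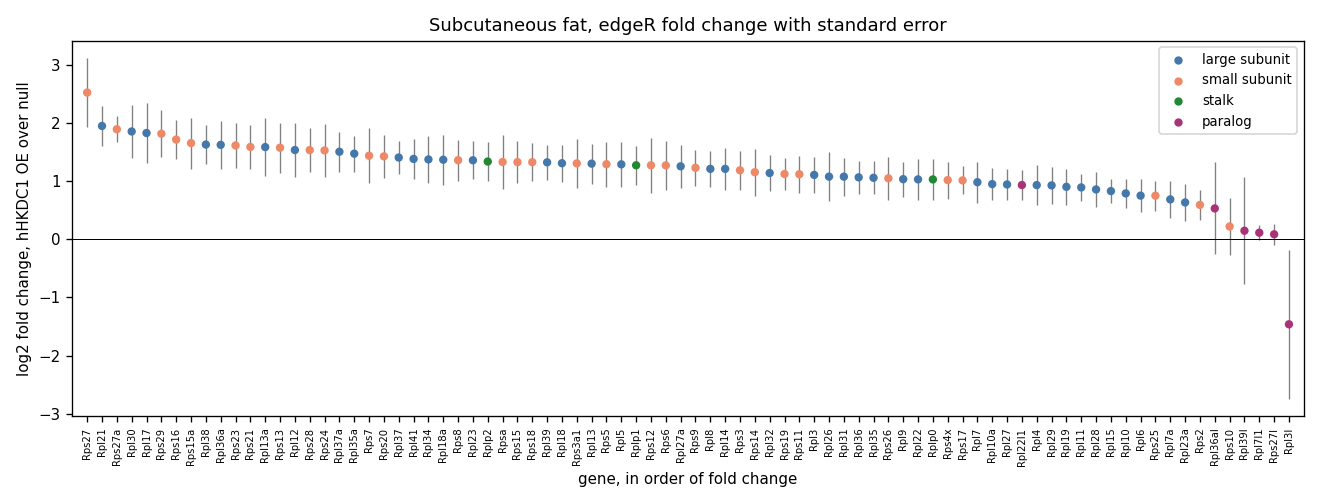
Log2 fold change of each of the 82 ribosomal protein genes tested in subcutaneous fat, hHKDC1 OE over null, in descending order, with the edgeR standard error as bars and colours for roles. Values run from 2.52 (Rps27) to -1.46 (Rpl3l), and 5 of the 6 lowest points are paralogs.

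Other genes of the translation apparatus are given from lists chosen with these results known. None of their genes passed the adjusted threshold in edgeR, and the counts at an unadjusted p under 0.05 stand beside 11.3% higher and 6.39% lower over all genes. Fau, the ubiquitin-like fusion, was at 174, 161 and 182 CPM in null and 588, 221 and 682 CPM in hHKDC1 OE fat. The median log2 fold change was 0.99 for snoRNA host genes (3 of 6 higher at an unadjusted p under 0.05), 0.45 for elongation factors (3 of 6), 0.53 for other mRNAs with a TOP motif (3 of 7), 0.35 for ribosome biogenesis factors (8 of 34) and 0.11 for initiation factors (2 of 29). It was 0.18 for RNA polymerase I subunits (0 of 11) and 0.094 for mitochondrial ribosomal proteins (1 of 77), which are nuclear-encoded like the cytosolic set. Nuclear oxidative phosphorylation subunits had a median of 0.12 (5 of 72), and the p53 genes Mdm2, Trp53 and Cdkn1a one of -0.089 (1 of 3). Genes of mTOR and Myc control had a median of -0.19, with 2 of 17 higher and 2 lower at an unadjusted p under 0.05 in edgeR. Mtor itself had a log2 fold change of -0.46 and Myc of 0.98 (edgeR adjusted p = 0.230 and 0.224).

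In the liver, the tissue that received the transgene, ribosomal protein genes did not differ detectably between hHKDC1 OE and null. They took 1.22, 1.38 and 1.56% of counts in null and 1.50, 1.40 and 1.37% in hHKDC1 OE libraries, so the groups overlapped. The median log2 fold change of the 80 genes tested was -0.027, with 32 above 0 (51.1% of all genes), against 0.0064 over all 13351 genes tested. None passed an adjusted p of 0.05 by edgeR (0% of all genes), none had an unadjusted p under 0.05 in either direction (3.89% of all genes higher, 3.05% lower), and DESeq2 called none (0.352% higher, 0.384% lower). For 1 gene, Rps13 (named after its values were seen), the hHKDC1 OE libraries were all below the null libraries, against 6.18% of all genes, and for none were they all above (6.31%), with a log2 fold change of -0.23 ± 0.14 (edgeR adjusted p = 0.820). With library size alone as the scale, 52 of the 80 and 61.4% of all genes were above 0, and the medians were 0.027 and 0.070. Relative to the median of all genes the ribosomal protein genes were at -0.033 with TMM and at -0.043 with library size alone, a distance that a change of scaling factors can hardly move.

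The liver genes at either end had wide spreads. Rpl7a was at 8.34, 33.4 and 39.7 CPM in null and 26.0, 36.4 and 74.6 CPM in hHKDC1 OE liver, with a log2 fold change of 0.75 ± 0.52 (edgeR adjusted p = 0.835). Rpsa and Rpl12 followed with 0.18 ± 0.21 and 0.15 ± 0.20, and both had hHKDC1 OE library 1 as their highest. At the other end Rpl36al, Rpl35a and Rps27a had -0.49 ± 0.67, -0.28 ± 0.19 and -0.27 ± 0.44. Rps27a was at 43.0, 129.9 and 74.0 CPM in null and 47.7, 113 and 43.4 CPM in hHKDC1 OE liver, which shows the spread within each group. Of the other genes that led in fat, Rpl30 had 0.079 ± 0.37, Rps27 0.054 ± 0.36, Rpl21 -0.091 ± 0.20 and Rpl17 -0.19 ± 0.18 here. Stalk gene Rplp0 had 0.10 ± 0.19 and Rps6 -0.031 ± 0.18. B cell markers summed to 1.54 to 4.96 CPM in the 6 liver libraries, T cell markers to 14.7 to 27.8 CPM, and hepatocyte markers to 89579.8 to 120800.2 CPM.

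The difference of the 2 tissues' fold changes was tested in 1 fit of the 12 libraries. The fat fold change minus the liver fold change had a median of 1.33 over the 82 genes tested, against 0.034 over all 17070 genes, and 72 of the 82 had an unadjusted p under 0.05 and were higher, 0 lower (9% and 3.67% of all genes). None passed the adjusted threshold in edgeR (0%), and DESeq2 called 22 of 83 higher (2.35% of all genes). The 3 largest were Rps27 (2.55 ± 0.76), Rps27a (2.25 ± 0.58) and Rpl21 (2.12 ± 0.43), with edgeR adjusted p of 0.196, 0.149 and 0.139. Without fat hHKDC1 OE library 2 edgeR called 62 higher (3.92% of all genes), and without fat hHKDC1 OE libraries 1 and 3 the median was 0.29 with 0 called, and with 4 higher and 1 lower at an unadjusted p under 0.05 (2.06% and 4.15% of all genes). In that fit the 1 library left was assumed to vary like the other groups. For 7 of the 80 genes tested in both tissues all hHKDC1 OE libraries were above the null mean in fat and below it in liver (3.39% of all genes), and for 0 the opposite held (4.63%). Because 81 of the 82 genes tested in fat were above 0 (46.1% of all genes), the count of 7 depends mainly on liver. The opposite could therefore hardly occur.

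Levels in the null mice differed between the tissues relative to other genes. With TMM scaling edgeR placed 70 of 82 genes lower in fat and 2 higher (adjusted p under 0.05), against 30.5% and 33.8% of all 15259 genes tested, and the median log2 difference, fat minus liver, was -0.95. With library size alone 8 were lower and 5 higher, against 15% and 59.1% of all genes, and the median was -0.057, while the median of all genes moved from 0.088 to 0.98. Relative to the median of all genes the ribosomal protein genes differed by -1.03 on the log2 scale under both scalings. A change of scaling factors shifts all genes nearly alike, so this agreement was fixed in advance and does not test the scaling. Other lists also had medians below 0 with TMM scaling, with -1.13 for nuclear oxidative phosphorylation subunits (62 of 72 lower), -1.14 for elongation factors (5 of 6) and -0.84 for mitochondrial ribosomal proteins (62 of 77). The differences moved with gene length too, since among the other protein-coding genes the median was -0.71 up to 1000 bases, -0.41 from there to 2000 bases and 0.32 over 4000 bases, and the part of length in the ribosomal protein values was not tested. This comparison uses the null libraries that also serve as controls above.

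Rps2 was at 243 ± 20.1 CPM in null fat and 701 ± 43.8 CPM in null liver (SD, n = 3), a log2 difference of -1.53 ± 0.17 (edgeR adjusted p = 1.13e-04). Rps6 was at 217 ± 10.6 CPM and 494 ± 9.17 CPM, with -1.19 ± 0.15 (edgeR adjusted p = 2.40e-04). For Rplp1 the values were 227 ± 32.0 CPM and 467 ± 51.1 CPM (-1.04 ± 0.18, edgeR adjusted p = 0.00133), and for Rpsa -0.74 ± 0.16 (edgeR adjusted p = 0.00399). Rplp0 and Rplp2 had -0.67 ± 0.16 and -0.26 ± 0.19 (edgeR adjusted p = 0.00682 and 0.255), and Rplp2 ran from -0.41 to -0.12 with 1 library left out. The sign of Rplp0, Rplp2 and Rpsa turned with library size alone, and they were not the only ones. That scaling placed 31 of the 82 genes above 0 (76% of all genes), against 2 with TMM (52.6%).

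The paralogs held both extremes. Rps27l was at 40.0 ± 2.26 CPM in null fat and 202 ± 11.8 CPM in null liver, a log2 difference of -2.33 ± 0.13 (edgeR adjusted p = 6.27e-06). Rpl36al had -2.39 ± 0.81 (edgeR adjusted p = 0.0317, and 0.0248 to 0.154 with 1 library left out) on low counts, and Rps27a, next above them, -1.92 ± 0.39 (edgeR adjusted p = 0.00288). The counts of Rpl3l were 1120, 1258 and 39 in null fat, compared with 2 in each null liver library, 363 times as much per total count (exact 95% interval 167 to 991, counting error only), and the fat library with few counts was also the one low in muscle markers. In null fat Rpl39l reached 28, 56 and 73 counts, while null liver had 0, 2 and 0 of them, a ratio of 70.8 (exact 95% interval 19.3 to 589.8, counting error only). Both liver counts came from 1 library, and the log2 difference of Rpl39l ran from 4.52 to 8.37 with 1 library left out. Rpl3l and Rpl39l passed the edgeR threshold (adjusted p = 0.00276 and 0.00176), and neither was tested when at least 10 counts were required in every library.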

How the data were processed

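Non-stranded libraries of liver and subcutaneous fat were sequenced, aligned with STAR and counted per gene with HTSeq 0.6.1, per the labels and the study's methods. The labels give STAR 2.5, and the methods name a later version beside it. The methods name a human reference, whereas the gene identifiers are those of the mouse, and 98.3% of them had the same position in the GENCODE M21 annotation (GRCm38). The deposited counts are whole reads per gene as the authors made them. The deposited FPKM are those counts divided by gene length and by a total that the authors scaled for each library. Tables holding the authors' own fold changes and p-values were not used.

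The 84 genes and all lists were chosen with earlier results of these data known. Counts were fitted with edgeR 4.0.16 in R 4.3.3 (TMM factors, filterByExpr, quasi-likelihood test), separately for each tissue, for the null libraries of both tissues and for the interaction over the 12 libraries. P-values were adjusted by Benjamini-Hochberg over all genes tested, with a threshold of 0.05. CPM are counts scaled to the TMM library size of each comparison, and the fits were tested on simulated data. Alternatives were DESeq2 1.42.0, other scalings and filters, limma 3.58.1 on log2(FPKM + 1) with a minimum mean FPKM of 0.1, 12 libraries in 1 fit, a replicate block, and leaving out each library. No pair of replicates agreed within sampling noise. Genes were named by a rule: the stalk genes and Rpsa, the paralogs with their parents, the 5 largest and 5 smallest fold changes in fat, 3 and 3 in liver and between tissues, called genes (at most the 10 with the smallest p), the 5 highest in FPKM per tissue, and Rps6, Rpl5, Rpl11, Rps19 and Rpl13a. Genes and lists added as comparisons are described as such. Rps4l was named in the rule and is not among the genes analysed here. Of one list of associated genes only Fau is reported here.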

Additional observations from a re-analysis of the deposited data

Results flagged for a closer look

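For 7 of the 80 genes tested in both tissues, every fat hHKDC1 OE library was above and every liver hHKDC1 OE library below the null mean of its tissue, and for 0 the reverse held, against 3.39% and 4.63% of the 12763 genes tested in both. The named genes among them were Rpl35a, Rpl36, Rplp2, Rps13 and Rps16, with a fold change in fat minus that in liver of 1.83, 1.31, 1.58, 1.88 and 1.88 on the log2 scale. None passed the adjusted threshold in the edgeR interaction test, with adjusted p of 0.139, 0.176, 0.145, 0.149 and 0.139. In fat these differences stood beside the lymphocyte markers of hHKDC1 OE libraries 1 and 3, whose part was not tested. Because 81 of the 82 genes tested in fat were above 0 (46.1% of all genes), the count of 7 depends mainly on liver. The reverse could therefore hardly occur. For the liver fold changes, 0 of the 80 genes had an unadjusted p under 0.05 in edgeR (3.89% of all genes higher, 3.05% lower).

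Reads assigned to ribosomal protein pseudogenes, which no comparison used, were above the null level in hHKDC1 OE fat. Their mean was 1250.3 CPM of all counts (SD 523, n = 3) against 499 (SD 69.3, n = 3) in null fat, 563 (SD 58.2) in null liver and 562 (SD 47.7) in hHKDC1 OE liver. The hHKDC1 OE fat libraries had 1536, 647 and 1568 CPM, again with library 2 the lowest. Set against the counts of the ribosomal protein genes themselves, the pseudogene share had means of 3.80% (null) and 3.73% (hHKDC1 OE) for fat and 4.06% (null) and 3.94% (hHKDC1 OE) for liver, n = 3 each.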

How the results depend on the processing

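In fat, the 82 genes had a median log2 fold change above 0 under all alternatives, while the count called higher was 0 in edgeR, 61 with DESeq2 (6.46% of all genes), 30 with no filter on low counts (2.42%), 56 with the 12 libraries in 1 fit (4.51%), and 0 to 73 when 1 library was left out (73 without hHKDC1 OE library 2, 11.4%). The median was 0.99 to 1.53 over those fits. For the fat minus liver difference the counts were 22 with DESeq2 (2.35% of all genes) and 0 to 62 with 1 library left out (62 without fat hHKDC1 OE library 2, 3.92%), with medians of 0.94 to 1.44. Leaving out fat hHKDC1 OE libraries 1 and 3, chosen after seeing the data, gave medians of 0.30 in fat and 0.29 for the difference, and Rpsa, Rpl7l1, Rps27l and Rps10 in fat turned to -0.074, -0.013, -0.18 and -0.79. Rpl39l in fat turned to -0.26 with limma on FPKM. With 1 library left out Rpl39l ran from -1.48 to 0.66, Rpl3l from -3.09 to -0.96, Rpl36al from 0.0092 to 1.24 and Rps27l from -0.10 to 0.19. Rps10 ran from 0.0066 to 0.53 in these fat fits, Rpl7l1 from 0.020 to 0.16 and Rpl7 from 0.65 to 1.28. In liver the median ran from -0.12 to 0.057, Rpl36al from -1.07 to 0.16, Rps27a from -0.85 to 0.22 and Rpl35a from -0.46 to -0.068. Rpl7a ran from 0.20 to 1.13 there, Rpsa from -0.085 to 0.36 and Rpl12 from -0.086 to 0.33. No filter gave 1 gene called higher in liver (0.726% of all genes). Between the null tissues 62 to 72 were lower and 2 higher with 1 library left out (25.8 to 28% and 29.4 to 32.7% of all genes, medians -1.04 to -0.87). There the median was -0.78 with upper-quartile factors and -0.057 with library size alone, which gave 5 higher and 8 lower (59.1% and 15% of all genes). Library size alone placed 31 of the 82 genes above 0 (76% of all genes), among them Rplp0, Rplp2 and Rpsa at 0.22, 0.63 and 0.15. Requiring 10 counts in every library gave 0 higher there (31.9% of all genes). With library size alone the median FPKM of fat was 76.9 (null) and 172 (hHKDC1 OE), and that of liver 81.3 (null) and 84.5 (hHKDC1 OE). Same-numbered libraries are linked in the labels only by their number, and whether fat and liver libraries came from the same mice is not given. The main fits across tissues treated all libraries as independent. Deviations of same-numbered libraries from the group means correlated at -0.12 to 0.030 in fat, where 0 of 6 libraries correlated best with their own number. They correlated at 0.088 to 0.22 in liver (6 of 6) and at 0.028 to 0.24 between the null tissues (5 of 6). With the replicate block edgeR called 1 ribosomal protein gene of 82 higher in fat (0.971% of all genes), where Rpl39l turned to -0.46, 0 in liver and for the difference, and 73 lower between the null tissues (31.2% of all genes). The causes of these changes were not tested. The 3 libraries per group limit the precision, and genes with few counts, such as Rps10 and Rpl36al, are the least certain.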
